A study of Mus musculus with 2 samples.

Results

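The mRNAs of 9 bZIP transcription factors were followed between the polysomal and the non-polysomal RNA of NIH3T3 cells: Creb1, Crem, Atf1, Atf2, Atf7, Creb3, Creb3l1, Creb3l2 and Crebzf. Members were chosen by name, as every spot for a transcript whose gene name on the array was one of these 9. This gave 27 probes in 36 spots, of 41174 probes in 43379 spots, and 9 of 28095 gene names. NIH3T3 is an established line of mouse embryo fibroblasts, here grown with 10% bovine serum. The control cells were untreated, and the others received 10 µM thapsigargin, which blocks the calcium pump of the endoplasmic reticulum (ER), for 3 h. Polysome-bound RNA (P) carried Cy3 and the joined free and monosome RNA (FM) carried Cy5. Each condition had 1 array, which held RNA pooled from 3 experiments, so there was no replicate of either condition, and differences between them carry no test and no p-value.

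CREB1, ATF1 and CREM bind the cyclic AMP response element as dimers through a basic region and a leucine zipper, and kinases of the cyclic AMP, calcium and growth factor pathways phosphorylate them in their activation domain. ATF2 and ATF7 share the same kind of zipper but answer to stress-activated kinases and pair with JUN. The CREB3 proteins are made as membrane proteins of the ER, and proteases of the Golgi release the part that enters the nucleus, where it acts on genes of the secretory pathway. CREBZF is a bZIP protein that binds the host cell factor HCFC1.

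Translation was scored by the Cy3 over Cy5 signal of each spot less its local background, on the log2 scale (log2 P/FM). For abundance the log2 signals of P and FM were averaged, a quantity called A. The change is always thapsigargin minus control. In such bulk samples A cannot tell fewer cells with the RNA from less RNA per cell. Probes with A above 4.5 on both arrays were called measured. None of the 153 negative control spots reached that level, the highest being 4.13 on the control array and 4.35 on the thapsigargin array. All 10 fibroblast genes that were looked up (among them Col1a1, Col1a2 and Vim) had a measured probe, as had 0 of 4 epithelial, 0 of 4 endothelial and 1 of 4 blood cell genes, the last being Cd3e. All 7 genes looked up for the response to thapsigargin, among them Hspa5, Ddit3 and Herpud1, were measured, and A was higher in treated cells at each of their 10 probes that were well above background, by 1.96 to 4.19.

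Of the 27 member probes, 16 were measured, and all of these were well above background in both channels on both arrays. They covered 8 of the 9 genes. The probe for Creb3l1, a CREB3 family member known from bone and from secretory cells, was not well above background in any channel, and no ratio is given for it. The median change in log2 P/FM of the 16 probes was -0.01, between -1.12 and 2.12, and that of all 17173 measured probes was -0.61. With thapsigargin 3 member probes were higher by 1 or more, one each for Creb1, Creb3l2 and Atf2, against 14.1% of all measured probes. Another 3 were lower by 1 or more, one each for Atf1, Creb3 and Crem, against 38.4% of all. These shares are 18.8% of the member probes each way. In all, 13 of the 16 lay above the median change of all probes.

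The arrays were read without scaling, and the size of every change rests on that. Scaled to the 10 spike-in probes, whose own ratio changed by a median of -2.44, the median change over all probes moved from -0.61 to 1.94, and all 16 member probes were then higher by 1 or more, as were 13227 of all measured probes. Centred on the median of each array, 3 member probes were higher and 0 lower by 1 or more, in place of 3 and 3, and of all 17173 probes 3630 were higher and 4524 lower. The loess curve gave 4 and 1, against 3595 and 3547 of all probes. The distance between the members' median and that of all probes does not move with a shift of a whole array. It was 0.60, and over all settings it ranged from 0.31 with loess to 1.15 with A above 7.

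**Figure D1:**
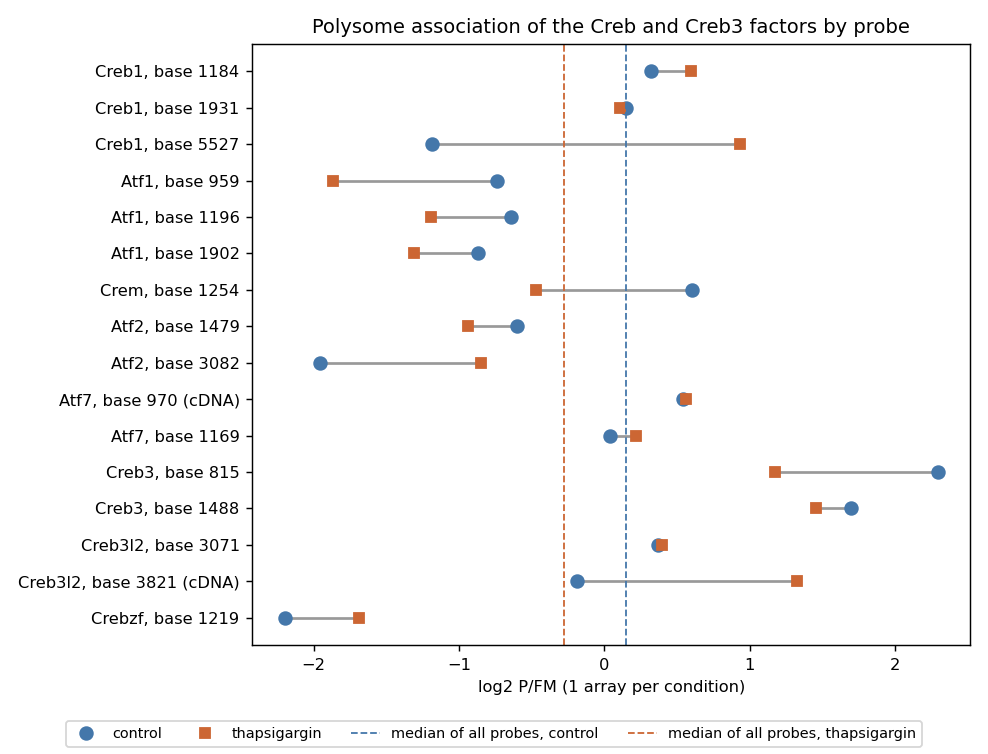
log2 P/FM (horizontal axis) of the 16 measured probes of the Creb and Creb3 factors, by gene and by the base of the transcript at which the probe starts, in control (circles) and thapsigargin-treated cells (squares), with 1 array each. Dashed lines are the medians of all probes with A above 4.5, at 0.15 in control and -0.28 in treated cells. The longest step to the right is that of the Creb1 probe at base 5527, from -1.19 to 0.94, and both Creb3 probes lie right of both medians on both arrays.

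Of the factors that bind as CREB1 does, Creb1 had the largest difference between its own probes. Its 3 probes start at bases 1184, 1931 and 5527 of NM_009952 and lie on one unbroken stretch of chromosome 1, since the steps of 747 and 3596 bases between them are the same in the genome as in the transcript. The first lies in the leucine zipper at the end of the coding sequence, and the probes that follow thus lie in the 3′ untranslated region.

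The probe of the Creb1 zipper gave a P signal of 37.2 in control and 84.6 in treated cells and an FM signal of 29.8 and 55.9. The unscaled signal was higher in both fractions after treatment, and the ratio moved little, from 0.32 to 0.60. Of all measured probes, 52.5% were higher in P and 82.4% in FM. The probe at base 1931 had a P signal of 56.9 and 95.0 and an FM signal of 51.2 and 88.1, and log2 P/FM went from 0.15 to 0.11. This probe too rose in both channels alike. The probe at base 5527, chr1:64648229-64648288 on build mm9, had a P signal of 61.0 in control and 246 in treated cells, against an FM signal of 139 and 128. Here the signal was higher in P alone, and log2 P/FM went from -1.19 to 0.94.

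The last probe was printed as 10 spots, of which 1 was left out as an outlier. Over the other 9 spots, log2 P/FM lay between -1.41 and -0.86 in control cells, with a median of -1.22, and between 0.70 and 1.05 in treated cells, with a median of 0.97. The spots of the arrays did not overlap, and the change was 2.12 ± 0.17 (SD over 9 spots of 1 array pair, which holds error between spots alone and none between arrays). In control cells this probe stood at the 13.6th percentile of log2 P/FM of all probes and in treated cells at the 89.6th. Its change lay at the 96.9th percentile, those of the upstream Creb1 probes at the 72.6th and the 65.1st. By the study's classes it was inducible, that is, at or below 0 in control and higher by 1 or more after treatment.

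Atf1, a close relative of Creb1, had low ratios on both arrays. Its 3 probes lie on chromosome 15 and start at bases 959, 1196 and 1902 of NM_007497. At base 959 the P signal was 28.4 in control and 20.8 in treated cells and the FM signal 47.5 and 75.9, so that log2 P/FM went from -0.74 to -1.87. At base 1196 it went from -0.64 to -1.19, and at base 1902 from -0.87 to -1.31. In both conditions and at every probe Atf1 mRNA gave more signal in FM than in P. The changes were -1.12, -0.55 and -0.44 where the median of all probes was -0.61. Only the change at base 959 passed 1 in size. It was lower by 0.8 or more, which the study called sensitive, as were 44.4% of all measured probes and 3 of the 16 member probes. Scaled to the spike-in probes, it turned to 1.43. It was -0.70 with each array centred, -0.52 without background subtraction and -0.22 with the normexp background correction.

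The zipper probes of Creb1 and Atf1 cover the same part of both proteins, and they are shown here because that is where the 2 mRNAs are most alike on this array. They are given 5′ to 3′ in the sense of the mRNA, as deposited, with leucine codons that stand 7 codons from another leucine codon in capitals, read in the one frame free of stop codons.
Creb1 zipper probe, chr1:64643886-64643945 on mm9, plus strand: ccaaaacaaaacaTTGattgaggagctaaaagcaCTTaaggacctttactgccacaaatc
Atf1 zipper probe, chr15:100090310-100090369 on mm9, plus strand: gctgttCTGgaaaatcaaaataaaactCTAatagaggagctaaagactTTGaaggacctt
Laid over each other without gaps they match in 35 of 46 bases, more than any other of the 184 pairs of probes of different members, Crem left aside. The next pair matched in 22 of 42 bases. Whether either probe bound mRNA of the other gene was not tested. On the same 2 arrays, the Creb1 probe changed by 0.28 and the Atf1 probe by -1.12.

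Crem encodes both activators and short repressors of the same family, some of the latter from a promoter inside the gene. Of its 6 probes, 1 was measured, at base 1254 of NM_013498. Its P signal was 42.5 in control and 54.6 in treated cells and its FM signal 28.0 and 75.7, so that the larger part of the difference stood in FM. log2 P/FM went from 0.60 to -0.47, a change of -1.07, and A was higher by 0.90. The change turned to 1.48 with spike-in scaling and to 0.19 with the normexp background correction. Of the other 5 probes, none was well above background in all channels. At base 1072 the FM signal was below that level in control cells, where log2 P/FM read 0.91, which is not a firm limit. In treated cells both channels were above it, and log2 P/FM was 0.20.

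Atf2 gave low ratios at both of its measured probes. At base 1479 of NM_001025093 the P signal was 34.6 in control and 34.3 in treated cells and the FM signal 52.4 and 65.8, and log2 P/FM went from -0.60 to -0.94. At base 3082 the P signal was 101 and 243 and the FM signal 391 and 439, and log2 P/FM went from -1.96, the 6.53rd percentile of all probes, to -0.85. The signal at this probe was higher in P and nearly level in FM, and the change of 1.11 made it inducible. That call was lost with normexp correction, where the change was 0.47, and without background subtraction, where it was 0.87. After treatment both probes stood at nearly the same ratio. Another 4 probes were named Atf2. Those for the cDNAs AK047405 and AK035438 were not above background, and the one at base 888 had no P signal above it on either array. That at base 3384 read -1.71 in control and 0.28 in treated cells. There P in control and FM in treated cells were not well above background, so neither value is a firm limit.

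Atf7, the nearest relative of Atf2, changed least in the unscaled values. With each array centred, its probes at bases 1169 and 970 changed by 0.60 and 0.45, and with normexp correction by 0.59 and 0.73. Its probe at base 1169 of NM_146065 had a P signal of 29.0 and 35.9 and an FM signal of 28.1 and 30.9, and log2 P/FM went from 0.04 to 0.22. That for the cDNA AK170250, at base 970, had a P signal of 87.2 and 154 and an FM signal of 59.95 and 104, and log2 P/FM went from 0.54 to 0.56. The signal of the second was thus higher in both fractions by a like factor. Its remaining probe, at base 1889, was not above background in any channel. The coding probes of both genes are shown because they cover overlapping parts of the zipper and give opposite signs of log2 P/FM in treated cells. Laid over each other without gaps they match in 21 of 33 bases. Whether either bound mRNA of the other gene was not tested. Of the Atf2 probe, 2 frames are free of stop codons, and the one with more leucine codons was used.
Atf2 zipper probe, chr2:73666533-73666592 on mm9, minus strand: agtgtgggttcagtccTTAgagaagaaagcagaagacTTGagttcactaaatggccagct
Atf7 zipper probe, chr15:102368700-102371207 on mm9, minus strand, across an intron: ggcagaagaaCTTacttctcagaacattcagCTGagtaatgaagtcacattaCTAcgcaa

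Creb3, which acts on secretory genes once cut free from the membrane, had the highest log2 P/FM of the members in control cells. Its probe at base 815 of NM_013497 gave a P signal of 716 in control and 551 in treated cells and an FM signal of 146 and 245, and log2 P/FM went from 2.30 to 1.17. At base 1488 the P signal was 573 and 817 and the FM signal 177 and 297, and log2 P/FM went from 1.70 to 1.46. At both probes P was above FM in both conditions, at the 98.6th and the 93.6th percentile in control and the 93.6th and the 96.7th in treated cells. With 0.8 or more on both arrays these were the 2 resistant member probes, of 16, against 3.32% of all measured probes. The probe at base 815 also met the sensitive class, with a change of -1.12 that turned to 1.43 with spike-in scaling. That class was also lost with each array centred (-0.70), processed signals of the scanner software (-0.68), loess (-0.53) and normexp correction (-0.09). The probe at base 1488 changed by -0.24, and the FM signal was higher by 0.75 on the log2 scale at both. The probe at base 815 lies in the zipper.
Creb3 zipper probe, chr4:43578403-43579046 on mm9, plus strand, across an intron: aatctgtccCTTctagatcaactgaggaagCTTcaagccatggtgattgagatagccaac

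Creb3l2, a relative of Creb3 that acts in cartilage on the coat proteins of transport vesicles, had more signal in both fractions after treatment at both of its probes. At base 3071 of NM_178661 the P signal was 144 in control and 291 in treated cells and the FM signal 112 and 221, so log2 P/FM stayed at 0.37 and 0.40. The probe at base 3821 of the cDNA AK082964, 3800 bases farther along chromosome 6, had a P signal of 293 and 1408 and an FM signal of 335 and 562, and log2 P/FM went from -0.19 to 1.33. Its change of 1.52 made it inducible, so that 3 of the 16 member probes were of that class, with Creb1 and Atf2, against 12.7% of all measured probes. In treated cells it stood at the 95.5th percentile of log2 P/FM. The cDNA bears the name Creb3l2 on the array, and whether it is part of the same transcript as NM_178661 was not checked.

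Crebzf stood apart from the other 7 genes in abundance. Its single probe, at base 1219 of NM_145151, had a P signal of 519 in control and 413 in treated cells and an FM signal of 2381 and 1334. It was the one measured member probe with less signal in both fractions and the one with lower A after treatment, by 0.58, a change at the 4.62nd percentile of all probes. Its log2 P/FM of -2.20 was the lowest of the members in control cells. In treated cells it was -1.69, below all but the Atf1 probe at base 959.

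**Figure D2:**
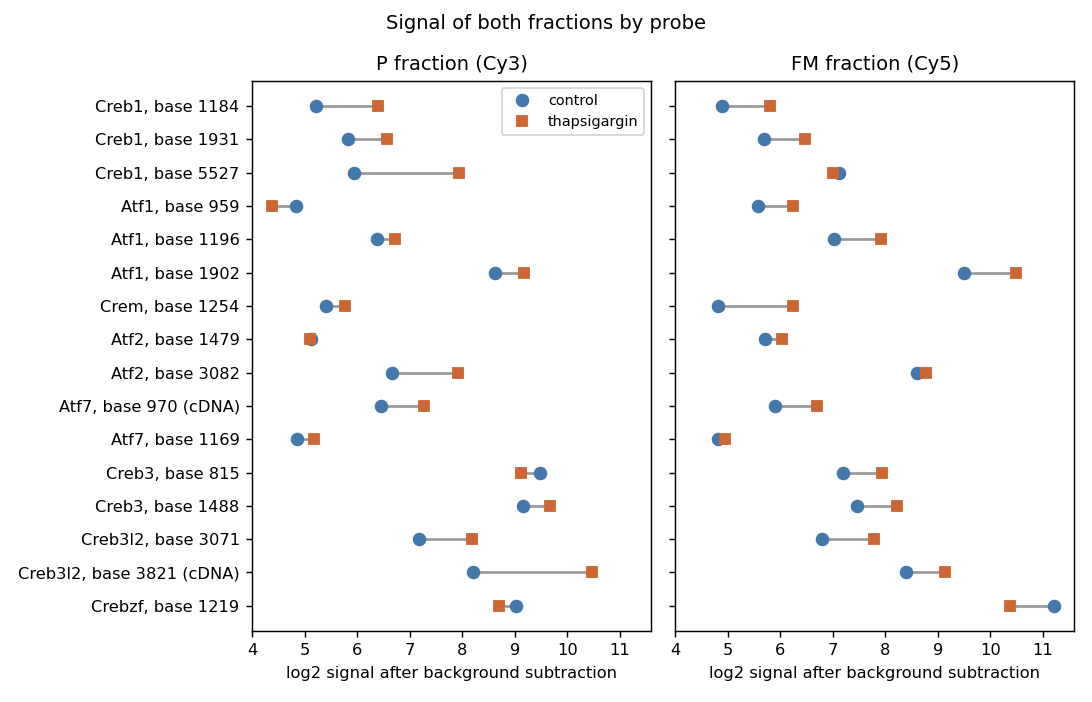
log2 signal after background subtraction (horizontal axes) of the 16 measured member probes in the polysomal fraction (left) and the free and monosome fraction (right), in control (circles) and treated cells (squares), 1 array each. At base 5527 of Creb1 and base 3082 of Atf2 the signal moved in P and hardly in FM, at Crem it moved mainly in FM, and at Crebzf both signals were lower after treatment.

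By fraction, P was higher in treated cells at 12 of the 16 member probes, against 52.5% of all measured probes, with a median change of 0.53 against 0.07. FM was higher at 14 of 16, against 82.4%, with a median of 0.75 against 0.67. The medians of the members and of all probes thus lay farther apart in P than in FM. A was higher at 15 of 16, with a median change of 0.74 against 0.37, and 75.5% of all probes were higher. Changes in A of 1 or more were found at 2 member probes, the Creb1 zipper probe with 1.05 and the Creb3l2 probe at base 3821 with 1.505, against 12.7% of all measured probes. No member probe was lower in A by 1 or more, against 1.29% of all. With normexp correction the median change in A was -0.66 for the members and -0.59 for all probes, so the direction in A depends on the background correction.

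**Figure D3:**
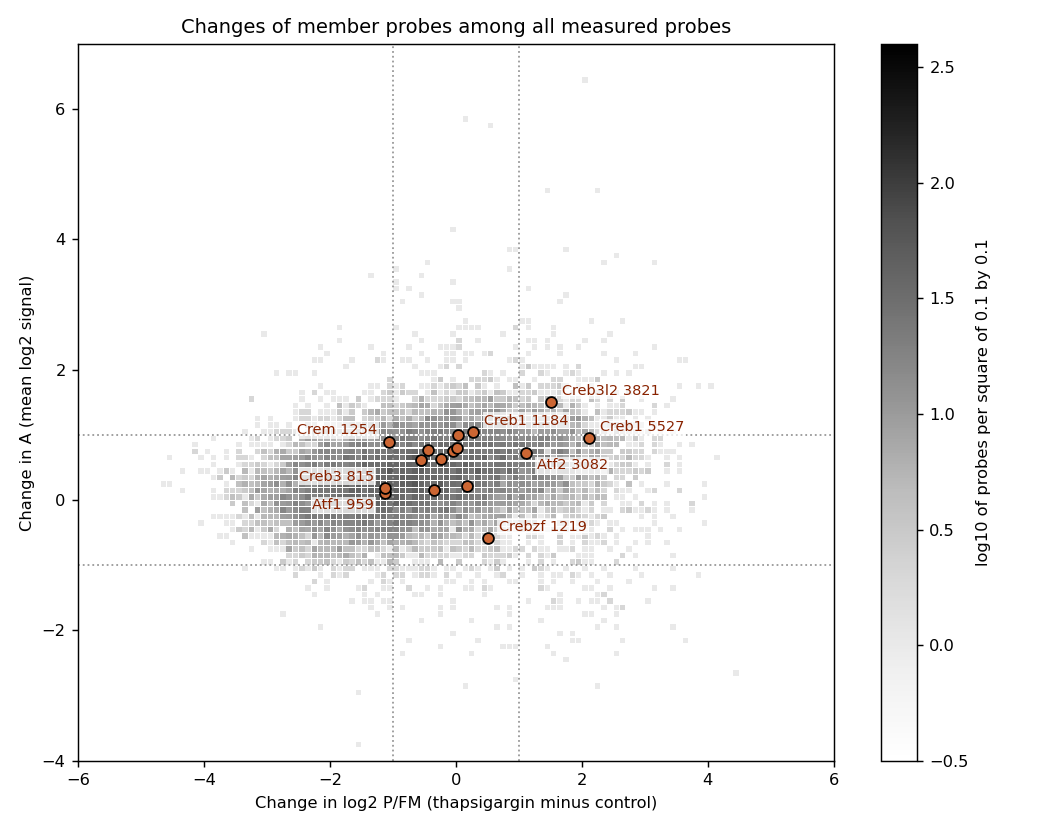
Change in log2 P/FM (horizontal axis) against change in A (vertical axis) for the 17173 measured probes, as counts per square of 0.1 by 0.1 on a log10 grey scale, with the 16 member probes as filled circles. Dotted lines mark changes of 1 in either direction. Member probes lie between -1.12 and 2.12 in log2 P/FM, and Crebzf is the only one with a lower A.

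In the order of control log2 P/FM, Creb3 (1.70 and 2.30) came first, both probes far above the 0.60 of Crem, the next. Crem, Atf7, Creb3l2 and the 2 upstream probes of Creb1 followed between -0.19 and 0.60. Neighbours within that stretch differed by no more than the 0.29 that is the median SD between probes of one transcript, taken over 3502 transcripts on the control array. Atf1 and the upstream Atf2 probe lay between -0.87 and -0.60 and did not differ beyond that spread. The distal Creb1 probe, the distal Atf2 probe and Crebzf came last, at -1.19, -1.96 and -2.20. In treated cells Creb3 (1.17 and 1.46) and the distal probe of Creb3l2 (1.33) came first and Crebzf and Atf1 (-1.87 to -1.19) last.

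In all, 6 members had 2 or more measured probes, and the probes of one gene often disagreed. The change at the most 3′ probe was above that at the most 5′ probe in 5 of them. The difference was 1.84 in Creb1 over 4343 bases of the genome, 1.49 in Creb3l2, where the 3′ probe is that of the cDNA, 1.45 in Atf2, 0.88 in Creb3 and 0.68 in Atf1. It was -0.15 in Atf7. In all of these genes but Creb3 the most 5′ probe was also the dimmer one in control cells. There A was 5.06 at the 5′ and 6.52 at the 3′ probe in Creb1, and 5.41 and 7.63 in Atf2. Position and signal strength thus go together here, and the part of each was not tested. Across all 3869 genes with 2 or more measured probes, the 3′ probe was higher in 66.2%, with a median difference of 0.29, and in 23.1% it was higher by 1 or more, which Creb1, Creb3l2 and Atf2 were. Among the 1856 genes whose end probes lay 1000 to 10000 bases apart, those shares were 70.7% and 30.2%.

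The spread between probes of one member was large in the same 3 genes. The SD of the change over probes was 1.17 in Creb1, 1.05 in Creb3l2 and 1.02 in Atf2, at the 90.3rd, 87.7th and 87.0th percentile of the 3869 genes. It was 0.37 in Atf1, close to the median of 0.37 over these genes. In control cells the 3′ probe had the lower log2 P/FM in Creb1, Creb3l2 and Atf2, by 1.51, 0.56 and 1.36, and in treated cells the higher one, by 0.34, 0.93 and 0.09. This turn was not particular to them: 3′ minus 5′ went from -0.60 to 0.29 in Creb3 and from -0.13 to 0.56 in Atf1. In Atf7 it was 0.50 and 0.35. Averaged over its probes with equal weight, Creb1 changed by 0.79, Creb3l2 by 0.77 and Atf2 by 0.38. None of the inducible calls of single probes holds for that mean. The authors' own value for the Creb1 transcript went from -0.95 in control to 0.81 in treated cells. Its change of 1.76 is inducible by the study's classes. It matches a mean over all Creb1 spots, of which the distal probe has 10 and each other probe 1. It thus rests mostly on the distal probe and is no separate support for the call. Their values for Atf2 and for Creb3l2 without the cDNA changed by 0.74 and 0.02. The Atf2 value matches a mean that takes in the probes at bases 888 and 3384, which were not measured here. In Atf1 the difference in change between the end probes turned to -0.24 with normexp correction, and in Atf7 to 0.15. In Creb1, Creb3l2, Atf2 and Creb3 it was positive in every setting in which both probes were kept, at 0.62 to 2.13, 1.01 to 2.10, 0.35 to 1.97 and 0.64 to 1.00. Without a filter on A, the 3′ probe was higher in 4 of 7 members and in 58.8% of all genes. The share over all genes ranged from 54.6% with normexp correction to 75.7% with the processed signals of the scanner software.

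**Figure D4:**
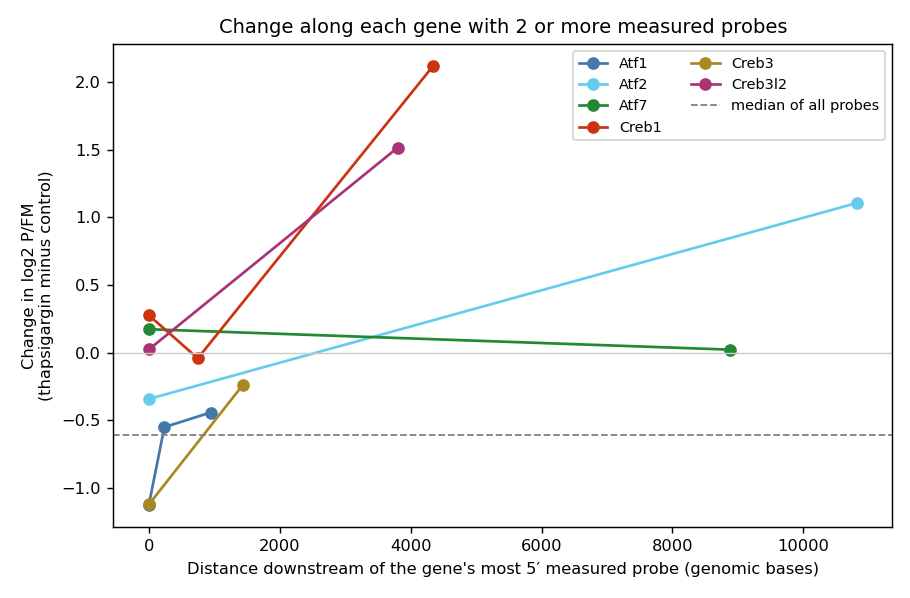
Change in log2 P/FM (vertical axis) against the distance in genomic bases from the most 5′ measured probe (horizontal axis) for the 6 members with 2 or more measured probes; lines join probes of one gene, and introns count towards the distance. The dashed line is the median change of all measured probes, -0.61. In Creb1, Creb3l2 and Atf2 the most 3′ probe lies above 1 and the most 5′ probe between -0.34 and 0.28.

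The genes around the factors were taken from lists drawn up by role and looked up by symbol. Their counts stand against the 14.1% of all measured probes that were higher by 1 or more and the 38.4% that were lower, with a median of -0.61. Kinases that phosphorylate CREB1 and subunits of protein kinase A had 15 measured probes of 10 genes, of which 0 were higher and 9 lower by 1 or more in log2 P/FM. Their median change was -1.21. The lowest were Akt1, a kinase of growth factor signalling, which went from 1.15 to -1.88 at base 367, and Rps6ka4, a stress and mitogen-activated kinase, from 1.35 to -1.41. Prkacb, a catalytic subunit of protein kinase A, was the highest, from 0.40 to 1.16 at base 3477, and Prkar2a, a regulatory subunit, came next at -0.13. These directions are without scaling: scaled to the spike-in probes, the median change over all the lists below together was 2.45.

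Of the coactivators, 5 probes of 4 genes were measured, 1 higher and 1 lower by 1 or more. Crebbp, the acetyltransferase that binds phosphorylated CREB1, went from -0.19 to 1.498 at the probe for the cDNA AK048818 and from 0.58 to 0.87 at base 6700. Crtc2 and Crtc3, which CREB1 recruits in response to calcium and cyclic AMP, went from 0.32 to -1.22 and from 0.44 to -0.14.

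Known target genes of CREB1 had the highest median of the lists. Of 11 measured probes of 9 genes, 8 were higher by 1 or more in log2 P/FM and 0 lower, with a median change of 1.43, and 7 were higher by 1 or more in A. Nr4a1, a nuclear receptor gene of the immediate early kind, went from -2.06 to 0.16 in log2 P/FM and from 9.81 to 14.6 in A. Egr1, an early growth response factor, went from -2.49 to 0.40 and from 10.6 to 12.8. Of the probes well above background in every channel, the least changed in log2 P/FM were those of Bdnf at base 1304, a neurotrophin, with 0.22, and Per1, a clock gene, with 0.86. Per1 was higher in A by 3.57. Many of these genes answer to other factors too, and the list does not tell which factor acted.

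For the CREB3 proteins, the genes of their Golgi cleavage and of ATF6, which is cut in the same way, had 7 measured probes of 4 genes, 0 higher and 3 lower by 1 or more. That share and the median of -0.59 lay near those of all probes. Scap, an escort protein of the sterol pathway, went from 0.87 to -1.995, and Atf6b from 0.79 to -1.06. Atf6 went from 0.60 to 1.18 at base 4312 and from 0.64 to 0.33 at base 2997, with the higher change again at the more 3′ probe. Secretory target genes had 10 measured probes of 6 genes, 0 higher and 3 lower, with a median of -0.16, and 4 were higher by 1 or more in A. Sec23a, a coat protein of transport vesicles, went from 0.18 to 1.14. Edem1, which marks misfolded proteins for breakdown, went from -0.31 to 0.65 at base 5427 and from 0.69 to -1.06 at base 1787. Col1a1, a collagen chain, went from 1.71 to -0.79 at base 228.

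Other CREB and ATF factors had 8 measured probes of 7 genes, 3 higher and 2 lower by 1 or more. Atf4, the factor of the integrated stress response whose upstream reading frames delay its translation, went from -1.60 to 1.83, a change of 3.42, and Atf5, under the same kind of control, from -1.01 to 0.88. The largest change among the members, the 2.12 of the distal Creb1 probe, was below that of Atf4. Jdp2, a repressor that pairs with JUN, went from -0.02 to -1.49. Dimer partners had 11 measured probes of 8 genes, 5 higher and 1 lower. Jun and Ddit3 went from -1.58 to 0.65 and from -1.74 to 0.84, Jund from 0.36 to -1.66, and Nfil3 from 1.58 to 0.60 at base 1641. Jun was lower in A by 1.46 and Ddit3 higher by 3.71. Hcfc1 and Hcfc2, partners of CREBZF, had 6 measured probes, 1 higher and 0 lower. Hcfc1 went from -0.24 to 0.88 at base 7768, from 0.29 to 0.22 at base 6328 and from 1.46 to 1.22 at base 608, and Hcfc2 from -0.79 to 0.04 at base 1735.

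**Figure D5:**
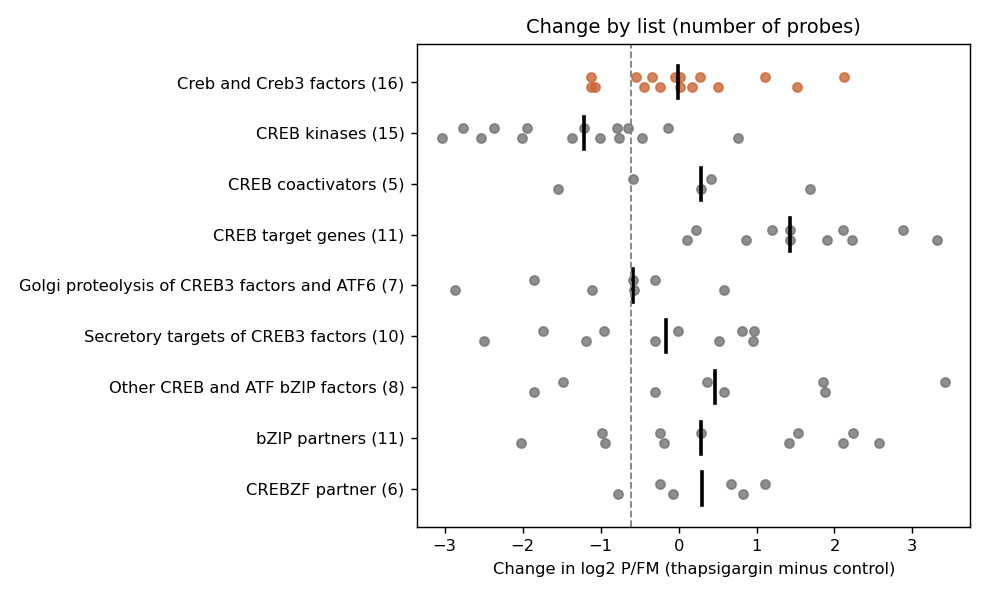
Change in log2 P/FM (horizontal axis) of each measured probe of the Creb and Creb3 factors and of 8 lists of genes around them, with the number of probes in brackets; thick bars are medians, and the dashed line is the median of all measured probes, -0.61. Without scaling, the CREB kinases have the lowest median, -1.21, the CREB target genes the highest, 1.43, and the members lie at -0.01. Some probes stand in more than 1 list.

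For the member probes with the largest changes, the probes most like them were sought among 15601 probes, by the distance between the 4 log2 signals (P and FM in each condition) after each probe's mean was taken off. With 4 values per probe, close neighbours are many, and likeness is a description. Nearest to the distal Creb1 probe were Pds5b, Zswim6 and Slit2, at distances of 0.05, 0.05 and 0.11, and with changes of 2.04, 2.21 and 2.26. Nearest to the Creb3l2 probe at base 3821 were Ncapd3, Ubr2 and Iqgap1, at 0.09, 0.13 and 0.15, with changes of 1.64, 1.48 and 1.73. Nearest to the Atf1 probe at base 959 were Pxmp2, S100a3 and Zc3h14, at 0.05, 0.05 and 0.08, with changes of -1.06, -1.08 and -1.13.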

How the data were processed

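Per the file headers, spot and local background intensity values were read from both arrays, which shared 1 slide and 1 scan, with Agilent Feature Extraction 10.7.1.1. Further columns of the deposited files give intensity after the software's own background subtraction and dye normalization, a log10 ratio of Cy5 to Cy3 made from them, and flags. The authors also gave one log2 value of Cy3 over Cy5 per accession, not normalized. From a 10 to 40% sucrose gradient, 300 ng of RNA of both fractions together was labelled per sample. By the study's methods, P held more RNA than FM in control NIH3T3 cells, and FM more than P under stress. These proportions were kept for labelling, so the share of P in the labelled RNA was lower on the thapsigargin array. Dyes were not swapped. The amounts labelled and a dye effect can therefore be part of log2 P/FM, and the amounts labelled also of its change. Their part was not tested.

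Here each spot's median local background was taken off its mean signal, with 0.5 as the floor (limma 3.58.1, R 4.3.3), without normalization, as in the study's methods. Spots with an outlier flag on either array (295) were left out, and spots of one probe were averaged as log2 values. Where a channel was not well above background, that channel was set at the lowest signal well above background or at its own if higher. At the member probes its own was always the higher, so log2 P/FM there is the ratio as read. No spot was saturated. Other backgrounds and scalings were tried on the probes measured here. The steps were tested on simulated data.

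Positions are those of the deposited files, on mm9, and names were matched through a RefSeq table of GRCm38.p6. Members and lists were chosen with earlier results of these data known. From each list the 2 highest and 2 lowest changes among probes well above background were named, and for the 3 member probes of largest change past 1 the 3 most similar genes. Precision is limited by having 1 array per condition.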

Additional observations from a re-analysis of the deposited data

How the results depend on the processing

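No paired analysis was possible because each condition had 1 array, and for the same reason no replicate could be left out. Of 146 recomputed medians and counts of the member probes and their lists, 94 stayed within the spread between probes (medians) or within 1.5 times (counts), and 52 moved. Of 193 recomputed changes of single member probes, 124 stayed within the spread between probes, 65 moved and 4 turned sign from a change past 1. These were the spike-in scaling of Atf1 at base 959 (1.43), Creb3 at base 815 (1.43) and Crem (1.48), and normexp correction of Crem (0.19). The 124 include values that could not move, because filters on A or on background only choose probes. Keeping outlier spots could move the distal Creb1 probe alone. The log ratio of the scanner software repeated the values of its processed signals. In all, 25 of the 193 had the other sign, among them Creb3 at base 1488 in 6 of 13 settings. The causes were not tested.

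With spike-in scaling the median change was 2.54 for the members and 2.45 for the lists around them, the medians in control and treated cells 0.33 and 3.12, and 16 member probes were higher, 0 lower, 0 sensitive, 7 inducible and 4 resistant. With each array centred, the median change was 0.42 (lists 0.32) and that in A 0.29, with 1 probe higher in A, 0 lower in log2 P/FM and 0 sensitive. With normexp, the median change was 0.50 (lists 0.44), that in A -0.66, the control median -0.51, and 0 were higher in A, 0 lower, 0 sensitive, 2 inducible and 1 resistant. Without background subtraction the median change in A was 0.51, with 1 higher in A, 0 lower, 1 sensitive and 2 inducible. Processed signals gave 0.39 in A, 1 higher in A and 0.35 for the lists. Loess gave 0.47 for the lists and 1 lower. With A above 5.5, 1 was higher in A, 1 lower and 1 sensitive. With A above 7 these were 1, 1 and 1, the control median was -0.53 and the lists' median -0.77. Without a filter 5 were higher, 5 lower, 5 inducible and 6 sensitive, with most added probes at background. Averaged by gene name, 0 of 8 genes were higher, 1 lower (Crem), 1 sensitive, 0 inducible, 1 resistant (Creb3) and 1 higher in A (Creb3l2). At a change of 1.5 in place of 1, 1 probe was higher in A and 0 lower. In the authors' table, where probes of an accession share 1 value, and with median spot signals, outlier spots kept or the log ratio of the scanner software, the medians stayed within the spread between probes.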
